A study of Mus musculus with 15 samples.

Results

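The NF-κB genes described here are those of the 5 subunits of the transcription factor (Nfkb1, Nfkb2, Rel, Rela and Relb), of 3 inhibitors of the IκB family that hold it in the cytoplasm (Nfkbia, Nfkbib and Nfkbie) and of 2 nuclear relatives of these inhibitors (Nfkbiz and Bcl3). The 10 genes were chosen by their symbols among 35142 genes, not by a rule on their values but with earlier results of these data known. All 10 were among the 15360 genes that passed the filter on low values of at least 1 CPM (reads per 1000000 reads) in at least 2 cultures. They were measured by bulk RNA-seq in 15 cultures of dissociated cerebellar cells from wild-type C57BL/6 pups of postnatal day 0 to 4. At day 14 in vitro, 5 cultures had been stimulated for 18 h with 30 ng/ml recombinant murine IL-12p70 (the bioactive form of the cytokine, a heterodimer), 5 with 100 ng/ml, and 5 were left unstimulated. The design asks which genes IL-12 changes in cultured cerebellar cells and how this depends on its concentration. The labels number the cultures within a group and do not say whether they came from separate litters, so that p-values measure the spread between these cultures only.

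NF-κB acts as a dimer of Rel-domain proteins. In resting cells most dimers are held in the cytoplasm by IκB proteins, and receptors for cytokines such as TNF and IL-1 or for microbial products activate the IκB kinase (IKK), which marks the inhibitor for degradation and frees the dimer to enter the nucleus. Several genes of the family are themselves NF-κB targets, among them the one of the inhibitor IκBα, which gives the pathway a known negative feedback. In the brain, microglia and astrocytes are known to use NF-κB in inflammatory responses.

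Total estimated reads per culture were between 25746096 and 38435850, and the 10 genes held between 176 (Relb) and 3160 (Nfkb1) estimated reads in a culture. The labels call the cells neurons. Markers of other cell types were more abundant: in unstimulated cultures the median marker was at 5.53 TPM (transcripts per 1000000 transcripts, a unit corrected for length) for cerebellar neurons, 385 TPM for microglia, 181 TPM for astrocytes and 108 TPM for the oligodendrocyte lineage. The values are therefore those of mixed cultures, and in bulk RNA fewer cells of a type and less RNA per cell cannot be told apart. Summed microglial markers (14 genes) ranged from 8936 to 12620 TPM in unstimulated cultures, from 7125 to 8905 TPM at 30 ng/ml and from 8513 to 11200 TPM at 100 ng/ml. Of the 13 microglial markers tested, 9 were lower at 30 ng/ml in the edgeR test, beside 3.71% of all genes tested. At 100 ng/ml 0 were called (1 at an unadjusted p under 0.05), beside 9.77% of all genes. Summed astrocyte markers (11 genes) ranged from 3839 to 4298 TPM, from 4550 to 5308 TPM and from 4262 to 4718 TPM in these groups. Summed oligodendrocyte-lineage markers (12 genes) ranged from 6642 to 9858 TPM, from 6670 to 8194 TPM and from 5940 to 7212 TPM. Summed neuronal markers (15 genes) ranged from 196.8 to 261.8 TPM, from 218.6 to 267.2 TPM and from 221.3 to 259.6 TPM, those of fibroblasts and meninges (6 genes) from 417.7 to 560.2 TPM, from 443.1 to 531.2 TPM and from 518.2 to 666.2 TPM, and those of endothelium (6 genes) from 22.57 to 32.1 TPM, from 18.1 to 24.68 TPM and from 18.26 to 23.45 TPM. The neuronal sum was carried by Map2 and Tubb3, at means of 84.9 and 53.4 TPM in unstimulated cultures. Over the 14 neuronal markers tested, the median log2 fold change was −0.485 with 30 ng/ml (Calb1 and Gad1 lower, Tubb3 higher, 9 at an unadjusted p under 0.05) and −0.264 with 100 ng/ml (Calb1 lower, Tubb3 higher). All 6 markers of T and NK cells were under 1 TPM, and their sum did not exceed 1.71 TPM in any culture. The part of these shifts in the values of the NF-κB genes was not tested.

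At 100 ng/ml, 5 of the 10 genes rose against unstimulated cultures (Bcl3, Nfkbiz, Nfkbie, Nfkbia and Nfkb2) and 0 fell, at a false discovery rate (FDR) under 0.05 in edgeR's quasi-likelihood test with Benjamini-Hochberg adjustment over all genes. Among all genes tested, 9.77% were called in this comparison, 5.83% as higher and 3.93% as lower. At 30 ng/ml, 2 of the 10 rose (Bcl3 and Nfkbiz) and 0 fell, beside 7.87% of all genes called, 4.16% as higher and 3.71% as lower. Between 100 and 30 ng/ml, 1 of the 10 was called (Nfkbia, higher at 100 ng/ml), beside 0.579% of all genes, 0.501% as higher and 0.0781% as lower. The 10 genes had a median log2 fold change of 0.23 with 100 ng/ml and of 0.072 with 30 ng/ml, while the median over all genes tested was −0.004 and 0. Both comparisons use the same 5 unstimulated cultures. The CPM given below were scaled with TMM factors, and every FDR of a gene is from this edgeR fit unless another tool is named.

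**Figure D1:**
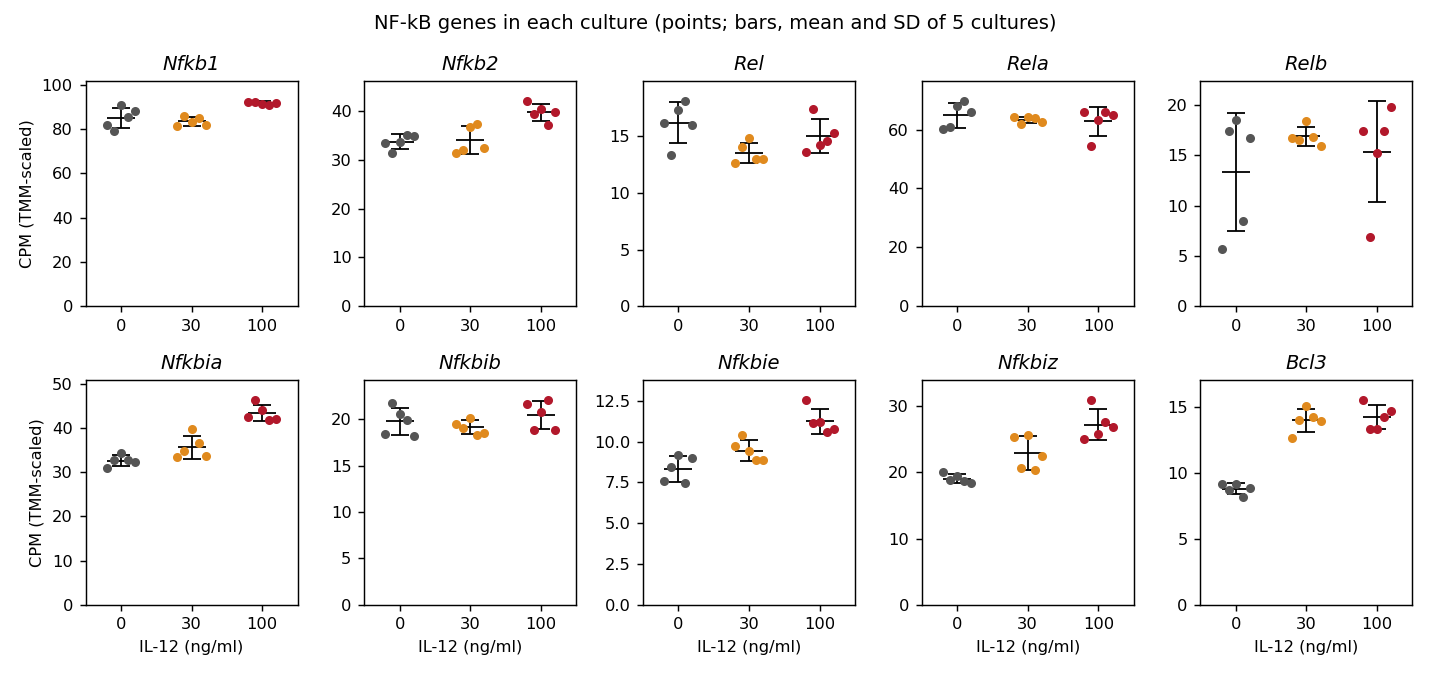
CPM of each of the 10 genes (vertical axes, from 0) in unstimulated cultures (0) and at 30 and 100 ng/ml IL-12, with 1 point per culture and bars for the mean and SD of 5 cultures. At 100 ng/ml all cultures lie above all unstimulated cultures for Nfkb1, Nfkb2, Nfkbia, Nfkbie, Nfkbiz and Bcl3, and Relb has 3 low cultures.

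Among the cytoplasmic inhibitors, Nfkbia and Nfkbie rose at 100 ng/ml and Nfkbib was not called. Nfkbia encodes IκBα, the inhibitor best known for fast degradation and resynthesis. It lies at chr12:55535332-55539432 on the minus strand of GRCm39. The 250 bases before the start of its most abundant transcript (Nfkbia-201, chr12:55539433-55539682, minus strand) are shown because they hold a match to the κB consensus, the DNA motif that NF-κB dimers bind. The match, in capitals, reads GGAAATTCCC and lies at bases −29 to −20 from the start, with the consensus on the opposite strand.

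Nfkbia: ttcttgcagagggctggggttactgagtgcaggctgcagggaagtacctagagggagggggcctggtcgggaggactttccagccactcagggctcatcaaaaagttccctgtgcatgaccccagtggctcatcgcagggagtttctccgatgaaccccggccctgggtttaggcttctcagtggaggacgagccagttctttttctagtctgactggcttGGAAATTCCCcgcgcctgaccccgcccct

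Nfkbia was at 30.89, 32.68, 34.31, 32.72 and 32.20 CPM in the unstimulated cultures. It was at 33.48, 34.77, 39.76, 36.56 and 33.71 CPM with 30 ng/ml and at 42.45, 46.25, 44.09, 41.81 and 42.05 CPM with 100 ng/ml. All cultures at 100 ng/ml were above all others, whereas 30 ng/ml and unstimulated cultures overlapped. With 100 ng/ml, the log2 fold change came to 0.41 (SE 0.051, FDR 8.35e-05), a rise of 1.33-fold (95% interval 1.24 to 1.43). With 30 ng/ml it came to 0.13 (SE 0.051, FDR 0.125), which did not pass the threshold. The direct comparison of 100 with 30 ng/ml gave 0.28 (SE 0.050, FDR 0.0121), the 1 call of the family between the concentrations. That call was lost without 30 ng/ml replicate 5 (0.26, FDR 0.0511).

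Nfkbie encodes IκBε, which preferentially binds dimers with c-Rel and p65. It lies at chr17:45866585-45874661 on the plus strand. The 250 bases before the start of Nfkbie-201 (chr17:45866356-45866605, plus strand) are shown for the same reason, and their match, GGGGGATTCC, lies at bases −86 to −77.

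Nfkbie: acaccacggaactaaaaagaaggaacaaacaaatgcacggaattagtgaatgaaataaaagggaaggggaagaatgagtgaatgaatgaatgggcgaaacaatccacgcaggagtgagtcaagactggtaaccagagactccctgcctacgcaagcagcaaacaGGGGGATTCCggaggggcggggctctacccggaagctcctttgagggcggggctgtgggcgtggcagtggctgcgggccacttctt

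Nfkbie was at 7.565, 8.448, 9.153, 7.482 and 8.967 CPM in unstimulated cultures. It was at 9.722, 10.41, 9.417, 8.850 and 8.870 CPM with 30 ng/ml and at 12.54, 11.13, 11.23, 10.58 and 10.77 CPM with 100 ng/ml. As for Nfkbia, the 100 ng/ml cultures stood above all others and the other groups overlapped. Against unstimulated cultures, Nfkbie had a log2 fold change of 0.44 with 100 ng/ml (SE 0.075, FDR 0.00142), or 1.35-fold (95% interval 1.21 to 1.51). It had one of 0.19 with 30 ng/ml (SE 0.076, FDR 0.146) and of 0.25 for 100 against 30 ng/ml (SE 0.074, FDR 0.168), neither of which passed.

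Nfkbib encodes IκBβ, another cytoplasmic inhibitor. It was at 19.8 ± 1.48 CPM in unstimulated cultures, 19.1 ± 0.759 CPM at 30 ng/ml and 20.4 ± 1.54 CPM at 100 ng/ml (SD, n = 5 each), and the groups overlapped. For 100 ng/ml the log2 fold change came to 0.049, with a 95% interval of −0.079 to 0.18, and the FDR was 0.660. For 30 ng/ml it came to −0.048 (95% interval −0.18 to 0.081, FDR 0.704).

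The nuclear IκB genes both rose at both concentrations, and they hold the largest log2 fold changes of the family at 100 ng/ml. Bcl3 encodes a nuclear protein that joins p50 or p52 dimers on DNA and can activate or repress. It lies at chr7:19541553-19557570 on the minus strand. It was at 9.156, 8.698, 9.153, 8.162 and 8.890 CPM in unstimulated cultures. It was at 12.62, 14.05, 15.06, 14.23 and 13.92 CPM with 30 ng/ml and at 15.52, 13.32, 13.36, 14.24 and 14.72 CPM with 100 ng/ml. The stimulated cultures all exceeded the unstimulated ones, without overlap, while the stimulated groups overlapped each other. The rise of Bcl3 with 30 ng/ml amounted to 0.66 on the log2 scale (SE 0.063, FDR 1.91e-05), or 1.58-fold. With 100 ng/ml it amounted to 0.69 (SE 0.063, FDR 2.73e-06), or 1.62-fold. The difference between 100 and 30 ng/ml was 0.028 with a 95% interval of −0.10 to 0.16 (FDR 0.892), so that a difference of up to 0.16 on the log2 scale lies within the interval.

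Nfkbiz encodes IκBζ, a nuclear protein needed for the induction of a subset of late inflammatory genes. It lies at chr16:55631738-55659262 on the minus strand. It was at 20.09, 18.86, 19.40, 18.65 and 18.43 CPM in unstimulated cultures. It was at 25.44, 20.68, 25.63, 20.34 and 22.55 CPM with 30 ng/ml and at 25.03, 30.94, 25.78, 27.64 and 26.83 CPM with 100 ng/ml. All stimulated cultures exceeded all unstimulated ones, but the lowest culture at 30 ng/ml stood only just above the highest unstimulated culture, and both concentrations overlapped. Nfkbiz rose by 0.51 on the log2 scale with 100 ng/ml (SE 0.071, FDR 0.000251), or 1.42-fold (95% interval 1.28 to 1.58). With 30 ng/ml it rose by 0.26 (SE 0.072, FDR 0.0308). This call at 30 ng/ml was lost when any 1 of 6 cultures was left out: unstimulated replicate 3 (FDR 0.0615), 4 (FDR 0.0702) or 5 (FDR 0.0671), or 30 ng/ml replicate 1 (FDR 0.085), 3 (FDR 0.0742) or 5 (FDR 0.0531). The difference between 100 and 30 ng/ml, 0.25 (SE 0.070, FDR 0.150), did not pass.

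Of all genes tested, 4.34% had every 100 ng/ml culture above every unstimulated culture (2.84% had them below), and 5.44% had every 30 ng/ml culture above every unstimulated culture (3.46% below). In the family these were 6 genes at 100 ng/ml (Nfkb1, Nfkb2, Nfkbia, Nfkbie, Nfkbiz and Bcl3) and 2 at 30 ng/ml (Nfkbiz and Bcl3). All cultures at 100 ng/ml were above all those at 30 ng/ml for 3 members (Nfkb1, Nfkbia and Nfkbie) and for 1.74% of all genes (below for 1.23%). No member had all cultures of a higher concentration below those of a lower one.

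**Figure D2:**
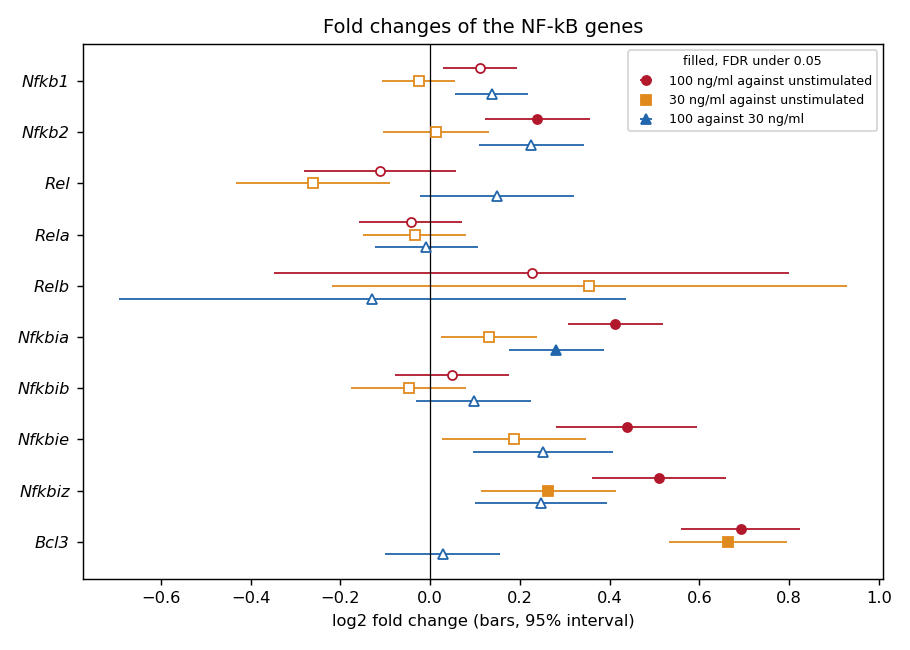
Log2 fold changes of the 10 genes (horizontal axis) with 95% intervals for 100 ng/ml against unstimulated (circles), 30 ng/ml against unstimulated (squares) and 100 against 30 ng/ml (triangles), filled where the FDR was under 0.05. Bcl3 lies at 0.66 and 0.69 against unstimulated cultures and at 0.028 between the concentrations, and the intervals of Relb are the widest.

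Of the subunit genes, Nfkb2 rose at 100 ng/ml. Nfkb2 encodes p100, which is both the precursor of the p52 subunit and an inhibitor, and lies at chr19:46292759-46303812 on the plus strand. It was at 33.42, 31.32, 33.69, 35.08 and 34.99 CPM in unstimulated cultures. It was at 31.38, 32.00, 36.85, 37.42 and 32.44 CPM with 30 ng/ml and at 41.98, 39.34, 40.44, 37.08 and 39.86 CPM with 100 ng/ml. The 100 ng/ml cultures exceeded all unstimulated ones, and replicate 4 at 100 ng/ml lay below replicate 4 at 30 ng/ml. Nfkb2 rose by 0.24 on the log2 scale with 100 ng/ml (SE 0.056, FDR 0.0120), or 1.18-fold (95% interval 1.09 to 1.28). With 30 ng/ml the log2 fold change came to 0.013 (SE 0.056, FDR 0.923). Between 100 and 30 ng/ml it came to 0.22 (SE 0.056, FDR 0.0887), which passed only without 30 ng/ml replicate 4 (0.27, FDR 0.0425) among the single cultures left out.

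Nfkb1 encodes p105, the precursor of p50, and lies at chr3:135290264-135397742 on the minus strand. It was at 85.0 ± 4.68 CPM in unstimulated cultures, 83.5 ± 2.00 CPM at 30 ng/ml and 91.8 ± 0.669 CPM at 100 ng/ml (SD, n = 5 each). The 5 cultures at 100 ng/ml lay between 90.8 and 92.4 CPM and the unstimulated ones between 79.2 and 90.7 CPM, so that the groups did not overlap by a narrow margin. The log2 fold change of 0.11 (SE 0.039, FDR 0.0789) was not called. It was called without unstimulated replicate 3 (0.14, FDR 0.0459), the highest of the unstimulated cultures, by DESeq2 (FDR 0.0499) and with library size alone (FDR 0.0478).

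Rela encodes p65, the main activating subunit of canonical signaling, and lies at chr19:5687493-5698161 on the plus strand. It was at 64.9 ± 4.24 CPM in unstimulated cultures, 63.3 ± 1.12 CPM at 30 ng/ml and 62.9 ± 4.93 CPM at 100 ng/ml (SD, n = 5 each). The groups overlapped, and with 100 ng/ml the log2 fold change came to −0.043, with a 95% interval of −0.16 to 0.071 (FDR 0.665). Replicate 2 at 100 ng/ml, at 54.3 CPM, was the lowest culture, and without it the log2 fold change was 0.0046 (FDR 0.954).

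Rel encodes c-Rel, a subunit known mainly from immune cells, and lies at chr11:23686847-23721264 on the minus strand. It was at 16.20, 13.39, 17.36, 18.08 and 16.03 CPM in unstimulated cultures. It was at 12.69, 14.09, 14.87, 13 and 13.04 CPM with 30 ng/ml and at 13.58, 17.46, 14.20, 14.58 and 15.33 CPM with 100 ng/ml. Unstimulated replicate 2 lay among the 30 ng/ml cultures, and the other unstimulated cultures were above them. Rel had a log2 fold change of −0.26 with 30 ng/ml (SE 0.081, FDR 0.0573) and of −0.11 with 100 ng/ml (SE 0.081, FDR 0.416), neither of which was called. The value at 30 ng/ml was called as lower when unstimulated replicate 2 (−0.32, FDR 0.0112), 30 ng/ml replicate 3 (−0.30, FDR 0.0472) or 100 ng/ml replicate 2 (−0.26, FDR 0.0309) was left out. It was also called as lower by DESeq2 (FDR 0.0295), by the likelihood-ratio test (FDR 0.032) and in the fit of only the groups compared (FDR 0.0487), in all in 6 of 26 alternatives. At 30 ng/ml the summed microglial markers were also lower, as given above, and the part of that in the Rel value was not tested.

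Relb, the partner of p52 in noncanonical signaling, was the member with the most variable values, and its result depended on how 1 transcript was counted. It lies at chr7:19339017-19363425 on the minus strand. The 250 bases before the start of its most abundant transcript (Relb-202, chr7:19363424-19363673, minus strand) hold 1 match to the κB consensus, GGGGTTTTCC at bases −37 to −28. A further match, GGGGAATTCC, lies past the start, at bases 36 to 45 of the transcript.

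Relb: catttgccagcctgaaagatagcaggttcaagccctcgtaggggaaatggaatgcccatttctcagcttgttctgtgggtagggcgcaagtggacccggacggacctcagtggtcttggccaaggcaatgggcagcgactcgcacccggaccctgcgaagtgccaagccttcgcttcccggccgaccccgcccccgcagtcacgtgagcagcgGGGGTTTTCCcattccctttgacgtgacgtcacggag

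Relb was at 5.635, 17.36, 18.52, 8.448 and 16.67 CPM in unstimulated cultures. It was at 16.71, 16.52, 18.42, 16.84 and 15.87 CPM with 30 ng/ml and at 17.42, 6.875, 15.17, 17.36 and 19.82 CPM with 100 ng/ml. Unstimulated replicates 1 and 4 and 100 ng/ml replicate 2 were low, and the other 12 cultures lay between 15.2 and 19.8 CPM. Against unstimulated cultures, Relb had a log2 fold change of 0.23 with 100 ng/ml (SE 0.27, FDR 0.648) and of 0.35 with 30 ng/ml (SE 0.27, FDR 0.483), with an SE several times that of any other member.

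In the 3 low cultures, Relb-202 held 31, 9 and 17 estimated reads, against 184 to 428 in the others. One transcript of 2203 bases without a match in the annotation used here, whose gene is therefore not given, held 453, 222 and 338 reads in the same 3 cultures and 0 to 191 in the others. When its reads were added to those of Relb, a choice made after the values had been seen, the sums were 17.45, 17.43, 18.52, 16.39 and 17.06 CPM in unstimulated cultures. They were 16.71, 16.52, 18.61, 16.84 and 17.88 CPM at 30 ng/ml and 21.05, 20.08, 21.35, 19.85 and 20.14 CPM at 100 ng/ml. The SD of the unstimulated cultures was 0.773 CPM for the sum and 5.86 CPM for Relb alone, and all sums at 100 ng/ml were above all other sums. On the log2 scale the sum rose by 0.24 with 100 ng/ml (SE 0.048, FDR 0.0051). The fold change came to −0.0057 with 30 ng/ml (SE 0.049, FDR 0.964) and to 0.24 between the concentrations (SE 0.049, FDR 0.0236). With each culture left out in turn, the call at 100 ng/ml held in 15 of 15 fits (FDR 0.00398 to 0.0161), and the call between the concentrations held in 8 of 15 (FDR 0.0150 to 0.0782). Whether the transcript belongs to Relb was not tested.

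**Figure D3:**
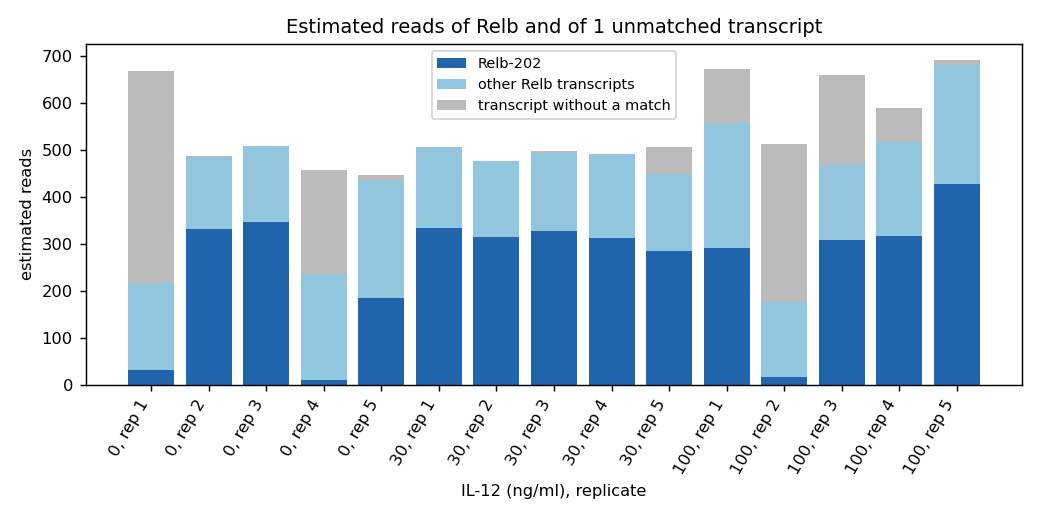
Estimated reads (vertical axis) in each culture (horizontal axis, IL-12 concentration and replicate) of Relb-202, of the other Relb transcripts and of the 2203-base transcript without a match, stacked. The 3 cultures with 31, 9 and 17 reads of Relb-202 are those with 453, 222 and 338 reads of the unmatched transcript.

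Compared per length, with TPM summed over all transcripts of a gene, the subunit Rela was highest in unstimulated cultures and Rel lowest. The unstimulated medians were 76.5 TPM for Rela, 48.2 TPM for Nfkb1, 44.6 TPM for Nfkbia, 30.4 TPM for Nfkbib, 19.3 TPM for Nfkb2, 15.97 TPM for Relb, 12.6 TPM for Bcl3, 8.14 TPM for Nfkbiz, 5.90 TPM for Nfkbie and 3.44 TPM for Rel. Of the neighbours in this order, the ranges of Nfkb1 and Nfkbia overlapped, as did those of Relb and Bcl3, and the others did not. Relb, with its low cultures, also overlapped Nfkbiz and Nfkbie. In TPM, Nfkbia at 100 ng/ml was above the highest unstimulated value of Nfkb1 (51.89 TPM) in every culture. This held only with the retained-intron transcript Nfkbia-202 counted: Nfkbia-201 alone was at 39.14 to 46.72 TPM with 100 ng/ml. The TPM sums of the genes include such short noncoding transcripts. In unstimulated cultures Rela-203 (retained intron, 786 bases) and Rela-202 (311 bases, no defined coding sequence) were at means of 22.05 and 14.28 TPM. The main protein-coding transcripts were at means of 30.4 TPM (Rela-201), 32.7 TPM (Nfkbia-201) and 29.9 TPM (Nfkbib-202), so that Rela was not the highest by these.

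**Figure D4:**
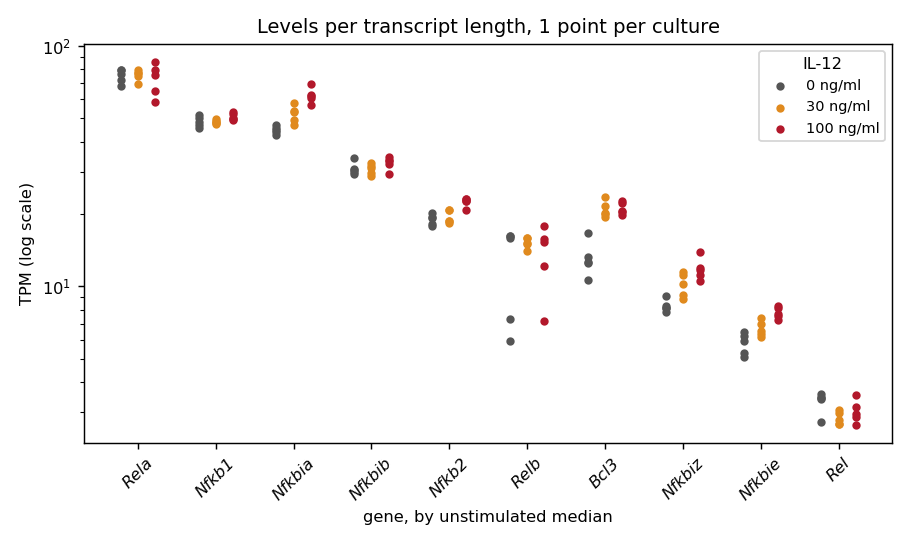
TPM of each gene, summed over all its transcripts (vertical axis, log scale), with 1 point per culture, coloured by IL-12 concentration. Genes are ordered by the unstimulated median, from Rela at 76.5 to Rel at 3.44 TPM. Nfkb2, Nfkbia, Nfkbie, Nfkbiz and Bcl3 stand higher at 100 ng/ml than without IL-12.

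The summed level of the cytoplasmic inhibitors stood higher with 100 ng/ml than without IL-12 in every culture, in TPM and in CPM, and that of the subunits overlapped between groups. The 5 subunit genes together, Relb as annotated, were at 158.5 ± 9.07 TPM in unstimulated cultures, 161.7 ± 3.12 TPM at 30 ng/ml and 163.2 ± 12.0 TPM at 100 ng/ml (SD, n = 5 each). The 3 cytoplasmic inhibitors together were at 81.5 ± 2.60, 89.7 ± 3.76 and 102.7 ± 5.37 TPM, and the 3 groups did not overlap (77.9 to 84.0, 86.7 to 96.1 and 97.5 to 111.2 TPM). This TPM sum includes the 701-base retained-intron transcript Nfkbia-202, at means of 12.0, 17.1 and 20.8 TPM in these groups. It made up 10.17 of 83.99 TPM in unstimulated replicate 2 and 22.56 of 89.76 TPM in 30 ng/ml replicate 5. Without it these cultures stood in the opposite order. The same held for 30 ng/ml replicate 3 (19.07 of 96.14 TPM) and 100 ng/ml replicate 5 (21.82 of 98.75 TPM). The separation of the 30 ng/ml cultures from the other groups therefore depends on counting this transcript. In CPM, the same sum overlapped between unstimulated cultures (56.84 to 64.04) and 30 ng/ml (61.07 to 69.36), and 100 ng/ml stood above both (71.61 to 76.67). The ratio of inhibitor to subunit TPM was 0.515 ± 0.0301, 0.555 ± 0.0219 and 0.634 ± 0.0747, with every culture at 100 ng/ml above every unstimulated one (0.490 to 0.559 against 0.575 to 0.763). The ratio of their CPM overlapped between these groups (0.2678 to 0.3111 against 0.3086 to 0.3626). The inhibitor and subunit TPM both hold noncoding transcripts, as given above for Nfkbia-202, Rela-202 and Rela-203. These sums are given as a description and were not tested.

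Single transcripts carried most of the reads of the inhibitors that rose. Of 55 annotated transcripts of the 10 genes, 30 passed the filter, and in a fit over 41466 transcripts 3 were called at 100 ng/ml, beside 0.555% of all. They were Bcl3-201 (log2 fold change 0.68, SE 0.10, FDR 0.00624), Nfkbiz-204 (0.52, SE 0.097, FDR 0.0253) and Nfkbia-201 (0.35, SE 0.059, FDR 0.0139), which held 86.3%, 93.5% and 85.5% of the reads of their genes. Nfkbie-201, with 94.4% of the reads of its gene, was not called in this fit (0.405, SE 0.097, FDR 0.0930). At 30 ng/ml, Bcl3-201 was called (0.71, SE 0.10, FDR 0.00965), beside 0.347% of all transcripts. Between the concentrations 0 transcripts of the family were called by edgeR, beside 0.0241% of all. The retained-intron transcript Nfkbia-202 was at a mean of 12.0, 17.1 and 20.8 TPM in unstimulated, 30 and 100 ng/ml cultures, a log2 fold change of 0.78 at 100 ng/ml (SE 0.17, FDR 0.0694) that was not called. Estimates of overlapping transcripts share reads, as do genes that overlap on the genome: Nfkbia, Nfkb2, Nfkbib and Bcl3 each overlap a gene on the opposite strand and Nfkb1 overlaps one on its own strand, and the sources used here do not say whether the estimates used the strand.

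Over all 10 genes, 3 (Nfkbia, Nfkbie and Relb) had a κB match within the window of 250 bases before to 50 bases from the start of their most abundant transcript, on either strand. Of 14183 windows of the same length in tested protein-coding genes, 10.14% held a match and 1.37% held at least 2, as that of Relb did. A match is a description of the sequence, and no match says only that these letters are not in this window. The most abundant transcripts of Nfkb1, Nfkbiz, Bcl3 and Nfkbib start well inside the annotated gene, so that their windows do not lie at the outermost start of the gene.

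The genes whose changes over the 15 cultures were most like those of the 5 called members were compared by the root-mean-square (RMS) difference of log2 CPM, each gene centred on its own mean. For Bcl3 they were Ogdh (RMS 0.088, log2 fold change 0.66 at 30 ng/ml and 0.72 at 100 ng/ml), Steap3 (RMS 0.106) and Fbxl5 (RMS 0.125). Nfkbia was closest to Slc31a2 (RMS 0.068), to the ferritin heavy chain gene Fth1 (RMS 0.071) and to the complement protease gene C1ra (RMS 0.073). Nfkbiz was closest to Klf9 (RMS 0.084), Gbp2 (RMS 0.107) and Il33 (RMS 0.117). Nfkbie was closest to Thy1 (RMS 0.098), Mt1 (RMS 0.106) and Cdh22 (RMS 0.106), and Nfkb2 to Alg5 (RMS 0.063), Scly (RMS 0.071) and Gmnn (RMS 0.075).

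Upstream of the family, 21 of 29 listed NF-κB ligands and receptors passed the filter. At 100 ng/ml 6 of these rose, 1 fell and 14 were not called (median log2 fold change 0.16), beside 5.83% of all genes called as higher and 3.93% as lower. Tnf, the prototypic NF-κB-activating cytokine, was at 9.91 ± 0.786 CPM in unstimulated cultures, 11.5 ± 1.35 CPM at 30 ng/ml and 15.3 ± 0.806 CPM at 100 ng/ml (SD, n = 5 each), with a log2 fold change of 0.63 at 100 ng/ml (SE 0.079, FDR 0.000104). The genes of the bacterial lipoprotein receptors Tlr2 (0.54, SE 0.084, FDR 0.000684) and Tlr1 (0.51, SE 0.13, FDR 0.0160) rose as well. Tnfrsf11a, the gene of the receptor RANK, fell at 100 ng/ml (−0.34, SE 0.099, FDR 0.0397). At 30 ng/ml 2 rose and 3 fell, beside 4.16% of all genes called as higher and 3.71% as lower, and the median was −0.006. Those that fell were Tnfrsf11a (−0.41, FDR 0.0169), Tlr6 (−0.35, FDR 0.0366) and Tnfrsf1b (−0.31, FDR 0.00695). The count of 5 called at 30 ng/ml became 8 without unstimulated replicate 2 or 100 ng/ml replicate 2. It became 3 without unstimulated replicate 5 or 30 ng/ml replicate 1 or 5, and 2 without unstimulated replicate 3. Tnf (FDR 0.0155) and Tlr2 (FDR 0.00428) were among the 3 genes higher at 100 than at 30 ng/ml, beside 0.501% of all genes. This count of 3 became 5 without unstimulated replicate 2.

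Of the 36 IKK kinases and adaptors, all of which passed the filter, 3 rose and 3 fell at 100 ng/ml, and the median log2 fold change was −0.002. Of all genes, 5.83% were called as higher and 3.93% as lower. Ikbke, the gene of the noncanonical kinase IKKε, rose by 0.46 (SE 0.068, FDR 0.000451). Ikbke was also the 1 gene of this list called between 100 and 30 ng/ml (0.37, FDR 0.0137), beside 0.579% of all genes. Map3k8 (0.35, SE 0.098, FDR 0.0322) and the adaptor gene Myd88 (0.26, SE 0.062, FDR 0.0152) rose, whereas Traf6 (−0.29, SE 0.069, FDR 0.0136), Tab2 (−0.16, SE 0.047, FDR 0.0365) and Fbxw11 (−0.14, SE 0.042, FDR 0.0475) fell. The 6 calls became 3 without unstimulated replicate 1 or 5. At 30 ng/ml 2 of the 36 were called, beside 7.87% of all genes, Irak1 as higher and Irak2 as lower, names given after their values had been seen.

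Of 20 listed brakes on NF-κB signaling, 19 passed the filter, and 4 rose and 0 fell at 100 ng/ml (median log2 fold change 0). In this comparison 5.83% of all genes were called as higher and 3.93% as lower. Irak3, the gene of a pseudokinase that limits Toll-like receptor signaling, rose from 7.04 ± 1.12 to 12.5 ± 1.29 CPM (0.82, SE 0.11, FDR 0.000173), and was at 7.45 ± 0.868 CPM at 30 ng/ml. Tnip3 (1.05, SE 0.23, FDR 0.00794), at 0.617 ± 0.158 CPM in unstimulated cultures, and the ribonuclease gene Zc3h12a (0.39, SE 0.067, FDR 0.00145) rose too. Tnip3 did not exceed 0.839 CPM in unstimulated cultures or 0.823 CPM at 30 ng/ml. It passed the filter only through the 100 ng/ml cultures (1.003 to 1.484 CPM), where it is high, so that its place in the counts of this list depends on that group. Tnfaip3, the gene of the deubiquitinating enzyme A20 and a known NF-κB target, was at 25.4 ± 1.63, 20.9 ± 2.41 and 26.2 ± 2.43 CPM, with a log2 fold change of 0.046 at 100 ng/ml (SE 0.076, FDR 0.752). At 30 ng/ml Tnfaip3 was the 1 gene of the list called, as lower (−0.28, SE 0.077, FDR 0.0319), beside 7.87% of all genes called. That call became 0 calls without unstimulated replicate 1, 3 or 4 or 30 ng/ml replicate 1, 2 or 5. Between 100 and 30 ng/ml 3 brakes were higher, among them Irak3 (FDR 0.00284) and Tnip3 (FDR 0.0241, tested only through its 100 ng/ml cultures), beside 0.501% of all genes. This count of 3 became 1 without 30 ng/ml replicate 1 or 5 or 100 ng/ml replicate 1 or 4.

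Downstream, 26 of 36 listed NF-κB-responsive genes passed the filter. At 100 ng/ml 13 rose and 2 fell (median log2 fold change 0.25), beside 5.83% of all genes called as higher and 3.93% as lower. At 30 ng/ml 6 rose and 2 fell (median 0.12), beside 4.16% of all genes called as higher and 3.71% as lower. Saa3, an acute-phase gene, was at 3.92 ± 0.631 CPM in unstimulated cultures, 7.44 ± 1.95 CPM at 30 ng/ml and 22.4 ± 3.54 CPM at 100 ng/ml (SD, n = 5 each). Saa3 rose by 0.91 on the log2 scale with 30 ng/ml (SE 0.18, FDR 0.00503) and by 2.5 with 100 ng/ml (SE 0.17, FDR 4.82e-08). The neutrophil chemokine genes Cxcl1 (1.42 at 100 ng/ml, SE 0.25, FDR 0.00165) and Cxcl5 (1.16, SE 0.17, FDR 0.000387) rose, at means of 1.08 and 2.95 CPM with 100 ng/ml. Cxcl1 was at 0.313 to 0.537 CPM in unstimulated cultures and passed the filter only through stimulated cultures, where it is high. Its place among the genes counted as higher at either concentration depends on those groups. Plau (−0.48, SE 0.081, FDR 0.00116) and Cd83 (−0.36, SE 0.11, FDR 0.0493) fell with either concentration. The part of the shifts in cell type markers given above in the values of this list, rising or falling, was not tested. Il6, Nos2, Cxcl2, Ccl5 and Mmp9 were among the 10 listed genes that did not pass the filter on low values.

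**Figure D5:**
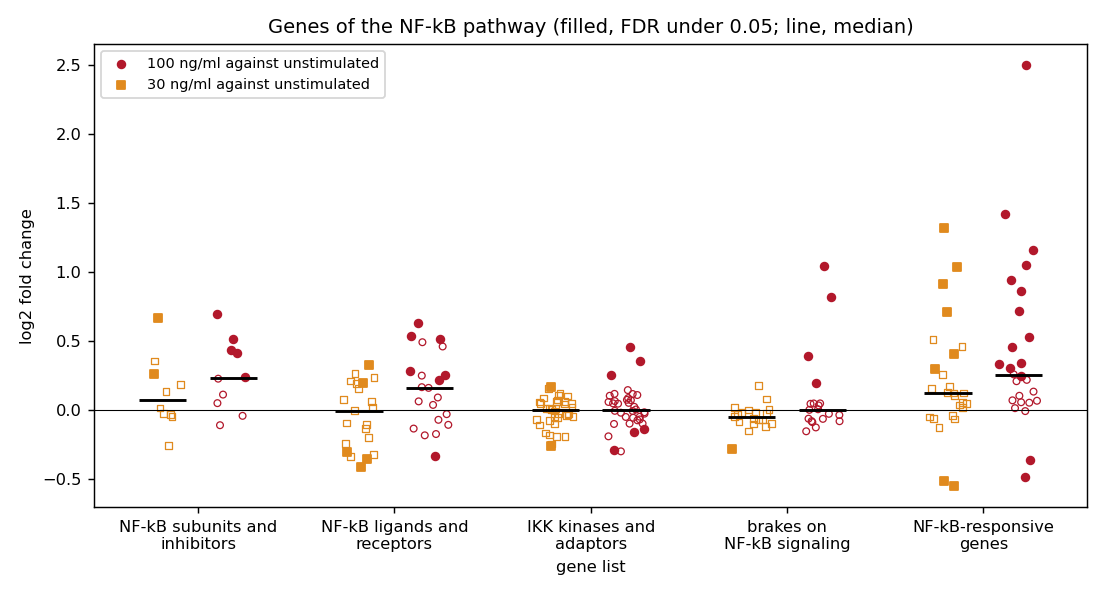
Log2 fold changes (vertical axis) of the tested genes of 5 lists (horizontal axis) at 30 ng/ml (squares) and 100 ng/ml (circles) against unstimulated cultures, filled where the FDR was under 0.05, with lines at the medians. Medians at 100 ng/ml are 0.23 for the subunits and inhibitors, 0.16 for ligands and receptors, −0.002 for kinases and adaptors, 0 for brakes and 0.25 for responsive genes.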

How the data were processed

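RNA of 15 cultures was sequenced from poly(A)-selected, stranded libraries. The submitters' processing notes name FastQC 0.10.0, STAR 2.7.8a, featureCounts and GRCm39, and the methods describe counts per gene. The deposited files hold other values: estimated counts, TPM and lengths of 121798 transcripts per culture, laid out as a pseudoalignment program writes them, and the program's name is not given in the sources used here. Estimated counts and TPM as deposited were summed to genes with GENCODE release M39 on GRCm39 (120537 transcripts matched, 99.0%), and the counts were rounded. Unmatched transcripts held 0.677% to 0.712% of the reads of a culture and were left out. The planned test for gene counts was applied to these rounded sums. Where the program divided reads between transcripts or overlapping genes, this affects their values.

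Genes were kept at 1 CPM or more in 2 or more cultures, scaled with TMM and compared by the quasi-likelihood test of edgeR 4.0.16 (R 4.3.3) in 1 model of 3 groups, with Benjamini-Hochberg adjustment over 15360 genes. Alternatives used DESeq2 1.42.0, limma 3.58.1 on log2(TPM + 1), RLE factors, library size alone, the likelihood-ratio test, no filter or a floor of 10 counts per culture, only the groups compared, a stricter threshold (unadjusted p of 0.01 or less and 0.5 or more on the log2 scale), the replicate number as a block, and each culture left out in turn. Protein-coding transcripts only, and Relb with 1 unmatched transcript added, were chosen after the values had been seen. Scripts were tested on simulated data. Promoters were read from GRCm39 with Python 3.11.15. Sequences of the proteins were not used here.

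The 10 genes, the 4 other lists of the pathway and the cell type markers were chosen with earlier results of these data known. Genes named were all 10 members, up to 3 of the largest rises and falls called in each list, Tnf, Tnfaip3 and the 3 most similar genes of each member called at 100 ng/ml. Deviations of same-numbered cultures from their group means had correlations of −0.183 to 0.264 over 15 pairs, 4 of them above 0.1. No correlations of differently numbered cultures are given beside them, so that these values do not decide whether the numbers pair the cultures.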

Additional observations from a re-analysis of the deposited data

Results flagged for a closer look

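In 3 of 60 groups of 5 cultures, 1 culture stood apart from the other 4 by Dixon's test, which chance does in about 1 in 20 groups. Nfkb2 was at 20.74 TPM in 100 ng/ml replicate 4, against 22.67 to 23.1 TPM in the others. Rel was at 2.737 TPM in unstimulated replicate 2, against 3.384 to 3.579 TPM. Rela was at 54.3 CPM in 100 ng/ml replicate 2, against 63.31 to 65.96 CPM.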

How the results depend on the processing

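The calls of Bcl3, Nfkbiz, Nfkbie, Nfkbia and Nfkb2 at 100 ng/ml and of Bcl3 at 30 ng/ml held in all 26 alternatives at an FDR under 0.05 (largest FDR 0.0342, for Nfkb2). The call of Nfkbiz at 30 ng/ml held in 18 of 26 and that of Nfkbia between the concentrations in 24 of 26. With the replicate number as a block, a number that names no shared litter or day, 1 member was called at 30 ng/ml (2 without it), 3 kinases and adaptors at 100 ng/ml (6), 1 brake between the concentrations (3) and 0 transcripts at 30 ng/ml (1). Of the other tools, DESeq2 called 3 members between the concentrations and the likelihood-ratio test 2 (1 in the main test), 8 and 8 ligands and receptors at 30 ng/ml (5), 6 and 6 between the concentrations (3), and 6 and 7 responsive genes between the concentrations (3). With limma on log2(TPM + 1), 0 members were called between the concentrations, 4 and 3 ligands and receptors at 100 and 30 ng/ml, 3, 1 and 0 kinases and adaptors at 100, at 30 and between the concentrations, and 0 and 1 brakes at 30 ng/ml and between them. An unadjusted p of 0.01 or less together with 0.5 or more on the log2 scale left 2, 1 and 0 members at 100, at 30 and between the concentrations, 3 and 0 ligands and receptors at 100 and 30 ng/ml, 0, 0 and 0 kinases and adaptors, 2 and 0 brakes at 100 and 30 ng/ml, and 8 responsive genes at 100 ng/ml. Without a filter 3 ligands and receptors were called at 30 ng/ml, and with only the groups compared 5 between the concentrations. Leaving out 1 culture gave 1 to 3 members at 30 ng/ml, 0 to 2 between the concentrations, 2 to 8 ligands and receptors at 30 ng/ml, 2 to 5 between the concentrations, 3 to 9 kinases and adaptors at 100 ng/ml, and 0 to 1 brakes at 30 ng/ml and 1 to 4 between the concentrations.

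Signs turned only for values that were not called in the main test, all near 0 except those of Relb (0.35 at 30 ng/ml and −0.13 between the concentrations). With protein-coding transcripts only, a choice made after the data had been seen, log2 fold changes were 0.019 for Nfkb1 and −0.0006543 for Nfkb2 at 30 ng/ml, and 0.042 and 0.068 for Rela at 100 ng/ml and between the concentrations. With limma, Rela was at 0.011 at 30 ng/ml. With the unmatched transcript added, also chosen afterwards, Relb was at −0.0057 at 30 ng/ml and at 0.24 between the concentrations, where 2 members were then called. Leaving out 1 culture gave −0.024 to 0.043 for Nfkb2 at 30 ng/ml, −0.070 to 0.0046 for Rela at 100 ng/ml and −0.026 to 0.039 between the concentrations, and, also between them, −0.24 to 0.050 for Relb and −0.0057 to 0.058 for Bcl3. The cause of these changes was not tested.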
